A study of Mus musculus with 9 samples.

Results

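Ribosome biogenesis factors are the proteins that transcribe, modify, cut and fold ribosomal RNA and dock ribosomal proteins onto it, but are not part of the finished ribosome. The values here are for 43 such genes, taken by symbol from the 55367 gene symbols of the count tables. The rule uses symbols and no measured value. They were read by role: 3 genes for the start of ribosomal RNA synthesis (the RNA polymerase I subunits Polr1a and Polr1b, and Myc), 3 for the core of box C/D and 4 for the core of box H/ACA small nucleolar ribonucleoproteins, 5 nucleolar chaperones and scaffold proteins, 10 factors of the small subunit processome, 6 of late small subunit maturation and 12 of large subunit assembly. All 43 had enough counts to be tested, with 77 to 20932 raw counts per gene and library.

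Ribosome production starts in the nucleolus, where RNA polymerase I makes one long precursor that holds most of the ribosomal RNAs. Small nucleolar RNAs guide chemical marks onto the precursor, the small subunit processome folds and cuts its first part, and other sets of factors finish each subunit on the way to the cytoplasm. The transcription factor MYC is known as an activator of many of these genes, and cells commonly make more of the factors when they start to grow.

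The monocytes came from adult mice and were kept for 4 h with a buffer alone (control), with platelets of adult mice, or with platelets labelled P7, the usual short form of postnatal day 7. They were then washed, and polyadenylated RNA was sequenced with a stranded kit as single short reads. Each group has 3 libraries, and all groups share the adult monocytes, the incubation time and the wash. The labels give no strain, sex or number of animals and do not say whether monocytes or platelets were pooled or whether replicates are separate cultures, so the p-values rest on the spread among these libraries alone, and that spread may be technical.

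Totals were 29687341 to 37065564 counts per library. Of 8 monocyte markers all had counts in each group, with a summed share of 2.39 to 3.05% of counts, whereas 8 T and NK cell markers together reached at most 0.000399%. The 13 platelet markers summed to 0.00246 to 0.00278% in control, 0.0570 to 0.0972% with adult and 0.104 to 0.120% with P7 platelets, and Gp1bb and Gp6 were at 0 counts in all control libraries. The 8 erythroid markers summed to 0.00111 to 0.00141%, 0.0499 to 0.180% and 4.37 to 5.52%, with none at 0. In 4 libraries (control 1, adult 1, adult 3 and P7 1) the immunoglobulin gene Igkc stood at 410 to 772 CPM, against 123 to 172 CPM in the other 5.

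Levels are normalised CPM, which are counts per library size after edgeR's scaling by the trimmed mean of M-values (TMM), and differences are log2 fold changes with their standard errors. A gene was called where the adjusted p of edgeR's quasi-likelihood test (Benjamini-Hochberg over all 13707 genes tested) was below 0.05, and every adjusted p given without another name is of that kind. A bulk measurement cannot tell fewer cells of a type from less RNA per cell, which holds for each level given.

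With adult platelets 22 of the 43 factors rose and 0 were called lower, while 14.3% of all genes were called higher and 12% lower (26.4% in either direction). The median log2 fold change of the 43 was 0.19, against -0.0022 for all genes. In 27 factors all 3 adult-platelet libraries lay above all 3 controls, and in 3 factors all lay below, where 21.8 and 20.9% of all genes did. The changes were small: Myc, at 2.42-fold, was the 1 factor to rise by 2-fold or more (3.6% of all genes rose by that much), followed by Nop58 at 1.64-fold. Without control 2, and likewise without control 3, the factors that rose numbered 13, where 7.99 and 8.58% of all genes were called higher. Of the 43, 1 was lower at an unadjusted p below 0.05 in edgeR, and 0 were called lower by the DESeq2 Wald test or limma-voom.

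With P7 platelets 31 factors rose and 4 fell against control, where 29.9% of all genes were called higher and 29.3% lower (59.2% in either direction). The median was 0.46, against -0.014 for all genes. All 3 P7 libraries lay above all 3 controls for 33 factors and below them for 4, and 34.5 and 34.7% of all genes did so. Nop58, Myc, Gnl3 and Tsr1 rose 2-fold or more (9.31% of all genes did). The factors that fell were Polr1a, Polr1b, Npm1 and Wdr12, and they numbered 2 without control 2, control 3, P7 2 or P7 3.

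Set directly against adult platelets, P7 platelets left 24 factors higher and 3 lower, where 19.7% of all genes were called higher and 19.8% lower (39.6% in either direction). The median difference was 0.20, against -0.024 for all genes, and no factor was higher by 2-fold (5.51% of all genes were). Libraries did not overlap for 25 factors that were higher and 3 that were lower with P7 platelets, which 24.2 and 24.8% of all genes showed. The 8 monocyte markers had medians of 0.24 with adult and 0.56 with P7 platelets against control, with 3 and 6 called higher and 0 and 1 lower; their part in the factors' differences was not tested. The comparisons share libraries, so their values are given side by side and are not independent of each other.

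These counts depend on the scaling. TMM factors were 1.07 to 1.10 for control, 1.02 to 1.05 for adult and 0.882 to 0.903 for P7 libraries, so they were lowest where the erythroid share given above was highest; its part in them was not tested. Scaled to library totals alone, a setting chosen after seeing the data, the median of all genes moved to -0.066, -0.29 and -0.24 in the 3 comparisons, and the share of calls that were higher moved from 54.4 to 36.2%, from 50.5 to 24.3% and from 49.9 to 19.3%. The factors called higher and lower then numbered 13 and 2 with adult platelets, 21 and 11 with P7 platelets, and 12 and 11 for P7 against adult platelets. Of all genes 9.42% were then called higher and 16.6% lower with adult platelets, and 16 and 49.9% with P7 platelets. For P7 against adult platelets these shares were 10.4 and 43.5%. The distance of the factors' median from that of all genes was 0.19, 0.48 and 0.22 under either scaling. A change of scaling shifts all genes of a comparison nearly alike, so that distance could hardly move. Each direction below is relative to the bulk of genes. Of called values, those of Nop10, Ddx21, Ddx10 and Noc2l with P7 platelets changed sign under library totals (-0.0025, -0.053, -0.16 and -0.030), as did those of Ddx21, Nop14, Bop1 and Noc2l for P7 against adult platelets (-0.018, -0.016, -0.014 and -0.046). Removing the listed platelet and erythroid markers, globin genes and mitochondrially encoded genes before TMM scaling left 13646 genes tested. All 22, 35 and 27 calls of factors stayed as they were. The factors' own reads were not touched, so this cannot show whether added cells contributed to them. A term for the 4 libraries high in Igkc gave 21, 35 and 27 calls of factors.

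**Figure D1:**
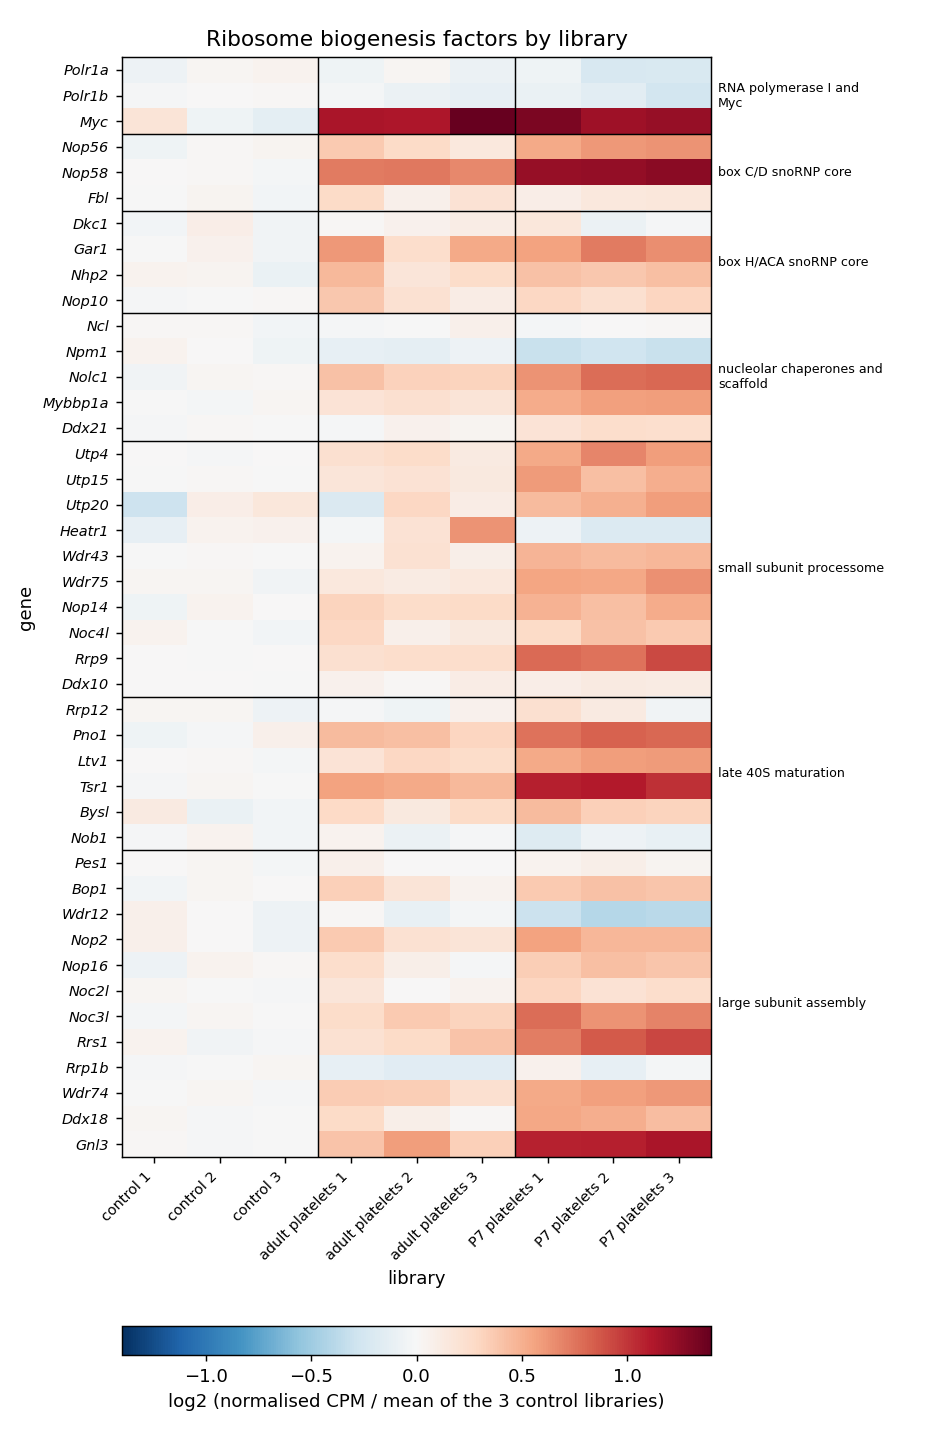
Heat map of the 43 factors (rows, ordered by role) in the 9 libraries (columns): colour is log2 normalised CPM minus the mean of the 3 control libraries. Most rows shift towards higher values from the control to the P7 libraries, while rows such as Ncl, Dkc1 and Pes1 stay near 0 and Npm1 and Wdr12 turn lower with P7 platelets.

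At the start of ribosomal RNA synthesis Myc rose with both kinds of platelets, while the polymerase genes Polr1a and Polr1b fell with P7 platelets. Myc encodes a transcription factor that binds DNA together with its partner MAX, and its gene lies at chr15:61985391-61990374 on the plus strand (GRCm38, GENCODE M21; identifier ENSMUSG00000022346.15). Its levels were 2.43, 2.05 and 1.95 CPM in the control libraries, 4.73, 4.69 and 6.11 CPM with adult platelets and 5.32, 4.86 and 4.98 CPM with P7 platelets. Every library with platelets lay above every control, and the libraries of both platelet groups overlapped. Myc rose by 1.27 ± 0.14 (adjusted p = 0.000388) with adult and by 1.24 ± 0.15 (adjusted p = 7.81e-05) with P7 platelets. Between P7 and adult platelets the log2 difference was -0.035 ± 0.14 (adjusted p = 0.87). Myc was also the least abundant of the 43 per length, at 0.788 ± 0.0925 RPKM (reads scaled to exon length and library size; SD, n = 3) in control and 1.86 ± 0.0875 RPKM with P7 platelets.

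Polr1a and Polr1b encode the catalytic pair of RNA polymerase I subunits. For Polr1a the control libraries had 67.8, 72.6 and 73.7 CPM, the adult-platelet libraries 68.4, 72.7 and 67.6 CPM and the P7 libraries 68.5, 61.0 and 61.7 CPM. The P7 libraries reached into the control range at their highest value. Polr1a fell by 0.16 ± 0.060 with P7 platelets (adjusted p = 0.0406) and Polr1b fell by 0.16 ± 0.061 (adjusted p = 0.0424). The DESeq2 Wald test called neither. Leaving out control 2 or 3 or P7 2 or 3 ended both, and leaving out control 1 or adult 2 ended that of Polr1b as well, with adjusted p up to 0.142 and 0.16. With adult platelets the differences from control were -0.037 for Polr1a and -0.079 for Polr1b, and neither was called.

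Since Myc rose with both kinds of platelets, the start regions of the factors were read for the 6 letters that MYC and MAX are known to bind. RefSeq promoter windows (GRCm38.p6, 250 bases before to 50 after the start) matched 37 of the 43 by symbol; Rrp12, Fbl, Npm1, Myc, Rrs1 and Bop1 had none. CACGTG, which reads the same on both strands, was in the windows of 9 of the 37 (24.3%), in 11.7% of the 10042 tested genes with a window, in 8.09% of all 27025 genes of the table and in 18.9% of 95 other biogenesis genes. The stretches around it, at most 30 bases each, are printed 5′ to 3′ on the strand of the gene with the motif in capitals, to show where it sits.
Ltv1, chr10:13193092-13193121, minus strand: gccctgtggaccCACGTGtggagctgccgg
Mybbp1a, chr11:72441355-72441376, plus strand: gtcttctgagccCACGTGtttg
Nop2, chr6:125131811-125131840, plus strand: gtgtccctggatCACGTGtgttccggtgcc
Pes1, chr11:3963965-3963994, plus strand: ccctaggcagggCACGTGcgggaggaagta
Pno1, chr11:17211540-17211564, minus strand: tgtacaaccacgCACGTGttcctct
Tsr1, chr11:74898092-74898121, plus strand: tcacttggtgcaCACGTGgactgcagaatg
Utp20, chr10:88826765-88826789, minus strand: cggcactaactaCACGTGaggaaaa
Utp4, chr8:106893643-106893672, plus strand: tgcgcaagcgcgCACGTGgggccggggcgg
Wdr43, chr17:71616220-71616249, plus strand: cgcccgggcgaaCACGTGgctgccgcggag
In 8 of the 9 the motif began 3 to 41 bases into the transcript, counting the start as 1, and in Nop2 it began 60 bases before the start. With P7 platelets 8 of these 9 genes rose (median 0.56) and Pes1 was not called (0.056), while of the 28 without the motif in the window 20 rose and 3 fell (median 0.38). With adult platelets 6 of 9 and 13 of 28 rose, with medians of 0.20 and 0.17. Of all genes 29.9% rose and 29.3% fell with P7 platelets, and 14.3% rose with adult platelets. A match is a description of letters, not of binding, and the motifs were chosen with results known.

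Nop58, Gnl3 and Nolc1, which rose by more than most, had no CACGTG in the window. The 250 bases before the start of Nolc1 are shown as an example of what such a window holds. Capitals mark 2 GC boxes (GGGCGG or, on the other strand, CCGCCC) and 1 ETS core (CCGGAAG or CTTCCGG), at chr19:46075597-46075846 on the plus strand.
Nolc1: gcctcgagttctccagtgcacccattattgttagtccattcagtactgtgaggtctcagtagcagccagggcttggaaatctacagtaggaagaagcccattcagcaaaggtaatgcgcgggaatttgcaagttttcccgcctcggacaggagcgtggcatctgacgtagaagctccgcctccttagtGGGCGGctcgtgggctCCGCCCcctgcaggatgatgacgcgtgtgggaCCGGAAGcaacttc
Over the whole 300-base windows, the GC box was in 75.7% of the 37 factors and 66.9% of tested genes, and the ETS core in 32.4 and 20.6%. The NRF1 site was in 2.7 and 2.37%, and AAGATGG (or CCATCTT), the core bound by YY1, in 2.7 and 8.56%. Both strands were searched.

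The box C/D particles, which carry the guide RNAs for methylation of ribosomal RNA, held the factor with the clearest steps. Nop58 encodes one of their paired scaffold proteins and lies at chr1:59684971-59719044 on the plus strand (ENSMUSG00000026020.9). Its levels were 35.7, 35.8 and 34.9 CPM in the control libraries, 58.8, 59.2 and 56.4 CPM with adult platelets and 82.6, 83.3 and 85.0 CPM with P7 platelets. The 3 groups did not overlap and the spread within each was small beside the steps between them. Nop58 rose 1.64-fold with adult platelets (0.71 ± 0.042, adjusted p = 8.42e-06) and 2.36-fold with P7 platelets (1.24 ± 0.042, adjusted p = 2.67e-07). It was higher with P7 than with adult platelets by 0.52 ± 0.041 (adjusted p = 3.78e-05).

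Nop56, the partner scaffold of Nop58, had 49.8, 52.4 and 53.3 CPM in the control libraries, 67.0, 62.3 and 57.6 CPM with adult platelets and 75.1, 79.1 and 80.3 CPM with P7 platelets. Again no library of one group reached into the next, though the adult-platelet libraries were spread more widely. Its log2 fold changes were 0.26 ± 0.062 (adjusted p = 0.0135), 0.59 ± 0.062 (adjusted p = 4.06e-05) and, for P7 against adult platelets, 0.33 ± 0.062 (adjusted p = 0.00288). Fibrillarin (Fbl), the methyltransferase of the same particle, moved less. It was called with adult platelets (0.18 ± 0.058, adjusted p = 0.0446), a call lost on leaving out any library except adult 2 (adjusted p up to 0.149). Its difference with P7 platelets was 0.14 ± 0.059 (adjusted p = 0.073). Among the fits that leave out 1 library, that difference passed the threshold only without adult 1 or adult 2 (lowest adjusted p = 0.0313). A fit to the control and P7 libraries alone called it as well.

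In the box H/ACA particles, which guide pseudouridine formation, 3 of 4 core genes rose with either kind of platelets. Of all genes 14.3% rose with adult and 29.9% with P7 platelets. Between P7 and adult platelets 0 of 4 were called by edgeR, the DESeq2 Wald test or limma-voom. In edgeR 0 of the 4 had an unadjusted p below 0.05 there. Gar1 had 6.80, 7.11 and 6.58 CPM in the control libraries, 10.4, 8.12 and 9.87 CPM with adult platelets and 10.1, 11.3 and 10.8 CPM with P7 platelets. Both platelet groups lay above control and overlapped each other. Gar1 rose by 0.47 ± 0.10 (adjusted p = 0.00889) and 0.65 ± 0.10 (adjusted p = 0.000438). The call with adult platelets was not kept without the 4 libraries high in Igkc (adjusted p = 0.0939), which leaves that group with 1 library.

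Nhp2, which stabilises the particle, rose by 0.30 ± 0.074 (adjusted p = 0.0176) and 0.41 ± 0.074 (adjusted p = 0.00115), the first of these lost without control 3 (adjusted p = 0.0741). Nop10 rose by 0.23 ± 0.068 (adjusted p = 0.0325) and 0.27 ± 0.068 (adjusted p = 0.0066). Its call with adult platelets ended when any 1 of the controls, adult 1, adult 2 or P7 3 was left out (adjusted p up to 0.097), and its P7 difference was -0.0025 with library totals. Dkc1 encodes dyskerin, the pseudouridine synthase of this particle that also serves telomerase. Its levels were 17.96, 19.7 and 17.9 CPM in the control libraries, 18.7, 19.2 and 19.9 CPM with adult platelets and 20.6, 17.4 and 18.3 CPM with P7 platelets. The libraries of all 3 groups overlapped, and no comparison called it (log2 differences 0.059, 0.022 and -0.037).

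Nucleolin (Ncl) and nucleophosmin (Npm1), abundant RNA-binding chaperones of the nucleolus, were the top 2 of the 43 per length, at 50.8 ± 1.20 and 136 ± 5.23 RPKM in control (SD, n = 3), and neither was called higher. Npm1 had 374.8, 362.1 and 347.0 CPM in the control libraries, 334.6, 331.5 and 343.1 CPM with adult platelets and 290.8, 297.5 and 291.1 CPM with P7 platelets. It was the 1 factor whose groups formed falling steps without overlap, a pattern that 10.3% of all genes had. Npm1 fell by 0.30 ± 0.047 with P7 platelets (adjusted p = 0.000446) and was lower with P7 than with adult platelets, by -0.20 ± 0.047 (adjusted p = 0.00857). The step from control to adult platelets, -0.10 ± 0.047 (adjusted p = 0.136), was not called. Processed copies of Npm1 could share reads with it, so its level is uncertain.

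Ncl had 523.5, 524.9 and 503.0 CPM in the control libraries, 509.8, 515.6 and 543.4 CPM with adult platelets and 508.8, 518.9 and 522.7 CPM with P7 platelets. All 3 groups overlapped, with log2 differences of 0.016 ± 0.047, -0.00095 ± 0.047 and -0.017 ± 0.047, none called. Under library totals Ncl was called lower with P7 platelets, both against control and against adult platelets, as were 49.9 and 43.5% of all genes. The summed share of the 43 in all counts, with no scaling factor, was 0.262% in control, 0.269% with adult and 0.252% with P7 platelets. Without the pair the other 41 summed to 0.167, 0.180 and 0.179%.

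The remaining 3 genes of this group rose with P7 platelets, so that 60% of the 5 rose and 20% fell. Of all genes 29.9% rose and 29.3% fell. With adult platelets 40% of the 5 rose, against 14.3% of all genes. Nolc1, a scaffold that escorts small nucleolar particles, had 35.7, 37.4 and 37.3 CPM in the control libraries, 48.9, 46.2 and 45.6 CPM with adult platelets and 56.9, 63.1 and 64.0 CPM with P7 platelets. Its 3 groups stood apart in order, and it rose by 0.35 ± 0.057 (adjusted p = 0.00252) and 0.74 ± 0.057 (adjusted p = 7.72e-06). P7 exceeded adult platelets by 0.39 ± 0.057 (adjusted p = 0.000842). Mybbp1a, a nucleolar protein linked to ribosomal RNA processing, rose by 0.20 ± 0.042 (adjusted p = 0.00847, and 0.05 without control 2) and 0.56 ± 0.042 (adjusted p = 6.16e-06). The RNA helicase gene Ddx21 was 0.029 ± 0.043 with adult platelets, not called, and rose by 0.22 ± 0.043 (adjusted p = 0.00168) with P7 platelets. Under library totals the last value was -0.053.

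Of the 10 factors of the small subunit processome, the assembly that forms on the front part of the precursor, 4 rose with adult platelets and 9 with P7 platelets. The direct comparison called 7 higher and 1 lower with P7 platelets. The shares called higher were 40, 90 and 70%, against 14.3, 29.9 and 19.7% of all genes. The group medians were 0.17, 0.49 and 0.34. Rrp9, a protein of the particle that holds the processome's own guide RNA, had the largest rise of the 10 with P7 platelets. Its levels were 8.55, 8.50 and 8.56 CPM in the control libraries, 9.99, 10.1 and 10.1 CPM with adult platelets and 14.8, 14.4 and 16.2 CPM with P7 platelets. The 3 groups did not overlap, and the step from adult to P7 platelets was the larger. Rrp9 rose by 0.24 ± 0.064 (adjusted p = 0.0234), 0.83 ± 0.064 (adjusted p = 7.57e-06) and, for P7 over adult platelets, 0.58 ± 0.064 (adjusted p = 0.00021). Leaving out any 1 control ended the first call (adjusted p up to 0.0809).

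The UTP-A module, whose members bind the precursor first, is represented by Utp4, Utp15, Wdr43, Wdr75 and Heatr1. Of these 5, 4 rose with P7 platelets, where 29.9% of all genes did. Utp4 had 25.3, 25.01 and 25.3 CPM in the control libraries, 29.5, 30.04 and 27.5 CPM with adult platelets and 36.3, 40.5 and 37.7 CPM with P7 platelets. Wdr75 had 19.5, 19.4 and 18.5 CPM in the control libraries, 21.1, 20.7 and 21.1 CPM with adult platelets and 28.0, 27.9 and 29.8 CPM with P7 platelets. In both genes each P7 library lay well above the adult-platelet libraries, which lay just above control. With P7 platelets the log2 fold changes were 0.60 ± 0.056 (adjusted p = 2.1e-05) for Utp4, 0.51 ± 0.053 (adjusted p = 3.68e-05) for Utp15, 0.46 ± 0.050 (adjusted p = 4.73e-05) for Wdr43 and 0.58 ± 0.050 (adjusted p = 1.45e-05) for Wdr75. Each was also higher than with adult platelets, by 0.40, 0.34, 0.35 and 0.45. With adult platelets Utp4 (0.20 ± 0.056, adjusted p = 0.0266) and Utp15 (0.17 ± 0.053, adjusted p = 0.0403) were called. Utp4 lost that call without any 1 control, adult 1 or adult 2, and Utp15 without any 1 of those, adult 3 or P7 3 (adjusted p up to 0.0934 and 0.118).

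Heatr1, the large scaffold of the same module, had 68.4, 77.0 and 77.1 CPM in the control libraries, 72.6, 85.2 and 115.0 CPM with adult platelets and 70.8, 65.2 and 64.7 CPM with P7 platelets. The adult-platelet group was widely spread, with adult 3 far above the rest, and control and P7 libraries overlapped. Heatr1 was lower with P7 than with adult platelets (-0.44 ± 0.14, adjusted p = 0.0345), but the call was lost without adult 3, control 2, P7 2 or P7 3 (adjusted p up to 0.102) and in a fit to those 2 groups alone. Its differences from control were 0.29 ± 0.14 (adjusted p = 0.159) and -0.15 ± 0.14 (adjusted p = 0.399). Without adult 1 the first reached an adjusted p of 0.035.

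Utp20, a very large processome protein, also varied within groups. Its levels were 28.4, 37.01 and 38.8 CPM in the control libraries, 30.3, 42.5 and 37.3 CPM with adult platelets and 47.2, 48.9 and 52.3 CPM with P7 platelets. Control 1 and adult 1 were the lowest of their groups, and only the P7 group stood clear. Utp20 rose by 0.51 ± 0.14 (adjusted p = 0.0102) against control and by 0.43 ± 0.14 (adjusted p = 0.0337) against adult platelets, the second lost without adult 1, adult 3, P7 2 or P7 3 (adjusted p up to 0.106). Nop14 and its partner Noc4l rose by 0.48 ± 0.050 and 0.35 ± 0.067 with P7 platelets (adjusted p = 4.13e-05 and 0.00164). Nop14 rose with adult platelets too (0.28 ± 0.050, adjusted p = 0.00401), whereas Noc4l was 0.17 ± 0.067 (adjusted p = 0.0955). Between P7 and adult platelets Nop14 differed by 0.20 ± 0.050 (adjusted p = 0.012), not kept without P7 3 (adjusted p = 0.0552), and Noc4l by 0.18 ± 0.067 (adjusted p = 0.06), past the threshold without adult 1 or P7 1 (lowest adjusted p = 0.014). The helicase gene Ddx10 had the smallest called change, 0.11 ± 0.041 (adjusted p = 0.0382) with P7 platelets. That call was lost without any 1 of the control or P7 libraries (adjusted p up to 0.108), and under library totals Ddx10 was instead called lower, at -0.16 (adjusted p = 0.0132).

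Late maturation of the small subunit, which ends with a cut in the cytoplasm, had 4 of 6 factors higher with either kind of platelets and 3 of 6 higher with P7 than with adult platelets. These shares were 66.7, 66.7 and 50%, against 14.3, 29.9 and 19.7% of all genes. Medians were 0.24, 0.47 and 0.23. Tsr1, a GTPase-like protein on the late subunit, lies at chr11:74898071-74909342 on the plus strand (ENSMUSG00000038335.13). It had 14.98, 15.4 and 15.1 CPM in the control libraries, 22.5, 21.9 and 20.8 CPM with adult platelets and 32.3, 32.7 and 30.9 CPM with P7 platelets. The groups stood apart with narrow spreads. Tsr1 rose 1.43-fold with adult (0.52 ± 0.051, adjusted p = 0.000196) and 2.1-fold with P7 platelets (1.07 ± 0.051, adjusted p = 7.31e-07). P7 platelets exceeded adult ones by 0.56 ± 0.051 (adjusted p = 8.44e-05). Its exons share 1240 bases, 32.3% of their length, with exons of Srr on the other strand, and Srr itself differed from control by -0.0023 and -0.047, not called.

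Pno1, which holds the cutting site of the maturing RNA together with the endonuclease Nob1, had 24.5, 25.4 and 27.0 CPM in the control libraries, 34.8, 34.4 and 31.6 CPM with adult platelets and 43.5, 45.3 and 44.7 CPM with P7 platelets. Its groups were separate in rising order. Pno1 rose by 0.39 ± 0.056 (adjusted p = 0.00131) and 0.80 ± 0.056 (adjusted p = 4.7e-06), while Nob1 was not called. Nob1 had 21.2, 22.3 and 20.9 CPM in the control libraries, 22.3, 20.3 and 21.2 CPM with adult platelets and 19.0, 20.5 and 20.01 CPM with P7 platelets. The adult-platelet libraries overlapped both other groups and the P7 libraries all lay below control, with differences of -0.015 ± 0.057 and -0.12 ± 0.058, not called.

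Ltv1, which travels with the immature subunit to the cytoplasm, rose by 0.25 ± 0.044 (adjusted p = 0.0038) and 0.57 ± 0.044 (adjusted p = 7.63e-06), from 61.8 ± 0.834 CPM in control to 73.4 ± 2.45 and 91.8 ± 2.32 CPM (mean ± SD, n = 3). Its groups did not overlap. Bysl, which helps export of the subunit, rose by 0.37 ± 0.072 (adjusted p = 0.00177) with P7 platelets. With adult platelets it was called at 0.23 ± 0.071 (adjusted p = 0.0424), which did not hold without control 2, control 3, adult 1, adult 3, P7 2 or P7 3 (adjusted p up to 0.154). Rrp12, an export factor, was at 20.4 ± 0.8, 20.3 ± 0.855 and 22.0 ± 2.07 CPM (mean ± SD, n = 3) and was called in no comparison.

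Large subunit assembly had 12 factors, of which 5 rose with adult platelets, 9 rose and 1 fell with P7 platelets, and 9 were higher and 1 lower with P7 than with adult platelets. The shares called higher were 41.7, 75 and 75%, against 14.3, 29.9 and 19.7% of all genes. The medians were 0.16, 0.44 and 0.25. Gnl3, or nucleostemin, a nucleolar GTPase best known from stem and dividing cells, showed the largest rise of the group and lies at chr14:31012433-31019152 on the minus strand (ENSMUSG00000042354.7). Its levels were 16.6, 16.2 and 16.4 CPM in the control libraries, 21.6, 24.6 and 20.7 CPM with adult platelets and 34.7, 34.8 and 36.2 CPM with P7 platelets. The groups formed rising steps with no overlap. Gnl3 rose 1.36-fold (0.44 ± 0.067, adjusted p = 0.0017) and 2.15-fold (1.10 ± 0.067, adjusted p = 2.05e-06), and its P7 level exceeded the adult-platelet level by 0.66 ± 0.066 (adjusted p = 0.000141), the largest such difference of the 43.

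Rrs1, which helps bring a small ribosomal RNA particle into the large subunit, had 13.6, 12.7 and 12.97 CPM in the control libraries, 15.1, 15.7 and 17.2 CPM with adult platelets and 21.4, 23.8 and 25.02 CPM with P7 platelets. These groups too were in order and apart. Rrs1 rose by 0.29 ± 0.076 (adjusted p = 0.0208) and 0.84 ± 0.076 (adjusted p = 1.73e-05), the first not kept without control 2, control 3 or adult 3 (adjusted p up to 0.0821). Noc3l, of the complexes that move early large subunits through the nucleolus, rose by 0.32 ± 0.058 (adjusted p = 0.00447) and 0.70 ± 0.058 (adjusted p = 1.08e-05). Its relative Noc2l rose by 0.25 ± 0.054 (adjusted p = 0.00324) with P7 platelets, from 97.8 ± 1.8 to 116.0 ± 4.02 CPM (mean ± SD, n = 3), and was -0.030 under library totals. Exons of Noc2l overlap Samd11 on the other strand over 598 bases, and Samd11 rose by 4.30 with P7 platelets (adjusted p = 0.000418).

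The PeBoW complex, a trio needed to finish large subunit RNA, was split. Bop1 rose by 0.39 ± 0.066 (adjusted p = 0.000731) with P7 platelets, while Pes1 had 88.7, 90.4 and 86.9 CPM in the control libraries, 93.4, 89.0 and 89.0 CPM with adult platelets and 91.9, 93.6 and 91.1 CPM with P7 platelets and was not called. Wdr12 fell: it had 17.5, 16.7 and 15.8 CPM in the control libraries, 16.9, 15.5 and 16.4 CPM with adult platelets and 13.6, 12.6 and 12.9 CPM with P7 platelets. All P7 libraries lay below all others, and control and adult-platelet libraries overlapped. Wdr12 fell by 0.36 ± 0.065 against control (adjusted p = 0.00112), and its difference from adult platelets was -0.32 ± 0.065 (adjusted p = 0.00422). Bop1 with adult platelets was 0.19 ± 0.066 (adjusted p = 0.0593), called only without adult 3 (adjusted p = 0.0136) among the fits that leave out 1 library. The difference between P7 and adult platelets for Bop1, 0.20 ± 0.066 (adjusted p = 0.0378), was lost without any 1 library except adult 1 (adjusted p up to 0.109), and that for Noc2l, 0.17 ± 0.054 (adjusted p = 0.0333), without any except control 1 or adult 1 (adjusted p up to 0.0946).

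Among the other large subunit genes, Nop2, an RNA methyltransferase, rose by 0.26 ± 0.065 (adjusted p = 0.0193) and 0.50 ± 0.065 (adjusted p = 0.000155). The first was lost without control 2 or control 3 (adjusted p up to 0.0816), and the step from adult to P7 platelets, 0.24 ± 0.065 (adjusted p = 0.0158), without adult 3 (adjusted p = 0.0554). Wdr74, linked to early remodelling of the large subunit, rose by 0.31 ± 0.050 (adjusted p = 0.00235) and 0.57 ± 0.050 (adjusted p = 1.45e-05). With P7 platelets the helicase gene Ddx18 rose by 0.49 ± 0.070 (adjusted p = 0.000277) and Nop16 by 0.39 ± 0.069 (adjusted p = 0.00105), while with adult platelets they were 0.13 and 0.11, not called. Rrp1b had 35.9, 36.1 and 37.002 CPM in the control libraries, 33.5, 32.4 and 32.6 CPM with adult platelets and 37.8, 33.4 and 35.7 CPM with P7 platelets. The adult-platelet libraries of Rrp1b all lay below control and P7 libraries spanned both, with differences of -0.15 ± 0.052 (adjusted p = 0.0674) and -0.027 ± 0.052 (adjusted p = 0.686). Leaving out P7 1 brought the first, and leaving out P7 2 the difference between P7 and adult platelets (0.12), just past the threshold (adjusted p = 0.0477 and 0.0497).

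**Figure D2:**
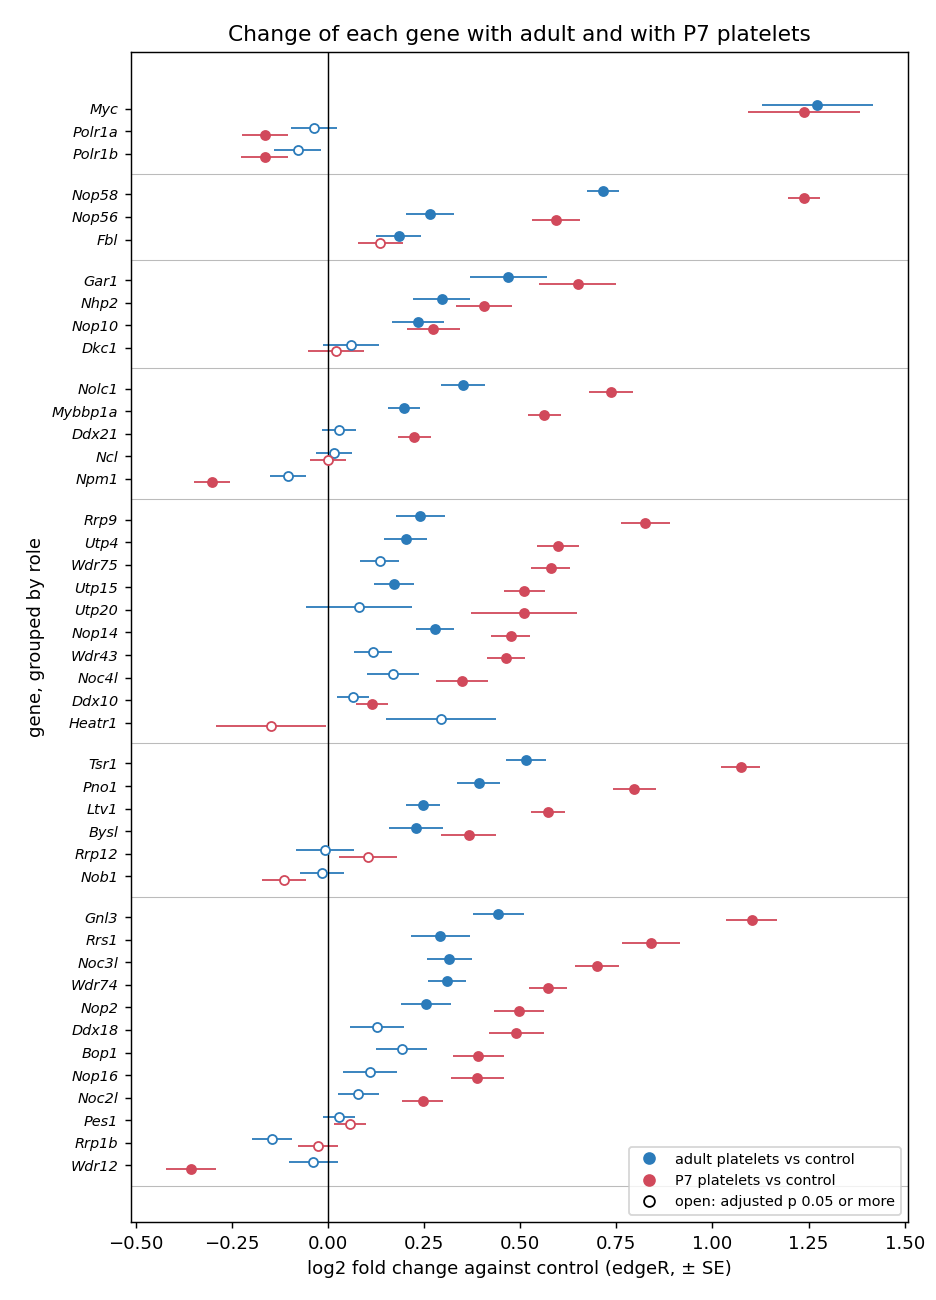
Log2 fold changes with standard errors of the 43 factors by role, for adult platelets and P7 platelets against control; filled points passed an adjusted p below 0.05 and open points did not. For Nop58, Gnl3 and Tsr1 the P7 point lies well to the right of the adult point, the points of Myc lie at 1.24 and 1.27, and Npm1 and Wdr12 lie left of 0 with P7 platelets.

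Levels in ordered steps, with every adult-platelet library above every control and every P7 library above every adult-platelet library, were found in 20 of the 43, where 10.2% of all genes had that order. They were Nop56, Nop58, Nolc1, Mybbp1a, Utp4, Utp15, Wdr43, Wdr75, Nop14, Rrp9, Pno1, Ltv1, Tsr1, Bysl, Bop1, Nop2, Noc3l, Rrs1, Wdr74 and Gnl3. By role these were 2 of 3 box C/D, 2 of 5 chaperone and scaffold, 6 of 10 processome, 4 of 6 late small subunit and 6 of 12 large subunit genes, with no polymerase or Myc gene and no box H/ACA gene. The adult-platelet libraries enter both steps, so the steps are not independent. No comparison called Dkc1, Ncl, Rrp12, Nob1, Pes1 or Rrp1b under TMM scaling. Under library totals all of these except Rrp12 were called lower with P7 platelets against control, as were 49.9% of all genes.

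**Figure D3:**
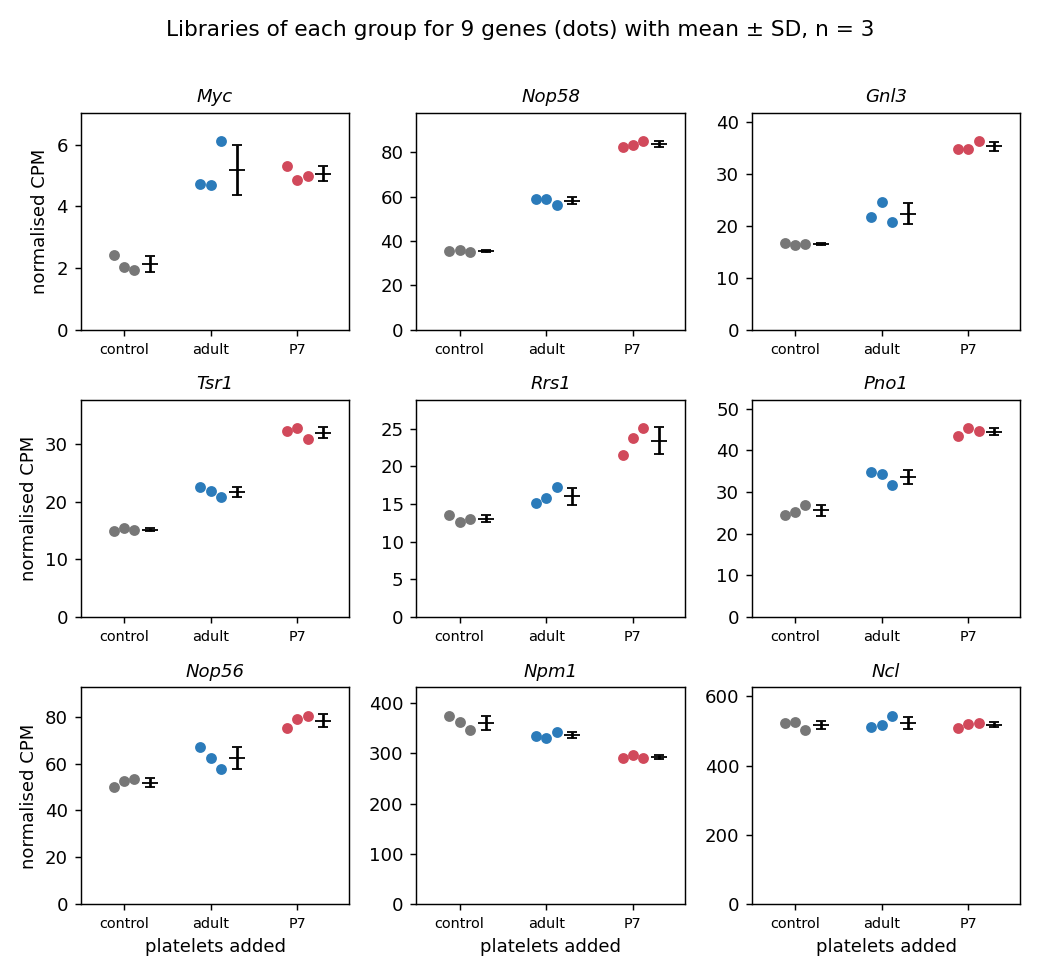
Normalised CPM in each of the 9 libraries for Myc, Nop58, Gnl3, Tsr1, Rrs1, Pno1, Nop56, Npm1 and Ncl, 1 panel a gene, with points for libraries and a bar for the group mean. Nop58, Gnl3, Tsr1, Rrs1, Pno1 and Nop56 climb from control to P7 platelets, the platelet groups of Myc overlap, Npm1 descends and the Ncl libraries of the 3 groups overlap.

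Per length, 5 factors were the most abundant in control: Npm1, Ncl, Ddx21 (36.98 RPKM), Noc2l (34.1 RPKM) and Pes1 (29.3 RPKM). Below them Ltv1, Nhp2 and Nop10 had 26.7, 24.5 and 22.5 RPKM. The lowest were Myc, Wdr12 (1.396 RPKM) and Polr1b (2.52 RPKM), with Gnl3 at 2.69 RPKM and Nop58 at 3.29 RPKM. Of the top 5, Ddx21 and Noc2l rose and Npm1 fell with P7 platelets, while the factors with the largest rises (Nop58, Myc, Gnl3 and Tsr1) had 3.29, 0.788, 2.69 and 3.96 RPKM in control. Lengths are the union of exons over all annotated transcripts in GENCODE M21, which can exceed the length of the transcript in use. They were 10758 bases for Nop58, 11955 for Wdr12, 10188 for Ncl and 6101 for Gnl3, against 2665 for Npm1. The order by RPKM therefore depends on the annotation as well as on the reads. In CPM Ncl was above Npm1 in control, at 517 against 361 CPM.

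Many small nucleolar RNAs are made from introns of other genes. In GENCODE M21 7 of the 43 (16.3%) hold annotated small nucleolar RNA genes within their bounds (Nop56, Nop58, Dkc1, Ncl, Wdr43, Tsr1 and Gnl3), against 2.03% of 13470 tested genes with a matched symbol. Nop58 holds Snord11 and Snord70, and Gnl3 holds Snord19 and Snord69. With P7 platelets 5 of the 7 rose (median 0.59), while Dkc1 and Ncl were not called, and of the other 36 factors 26 rose and 4 fell (median 0.40). All 274 tested genes that hold small nucleolar RNA genes had a median of -0.022, with 69 higher and 65 lower. Of all genes 29.9% were called higher and 29.3% lower with P7 platelets. The guide RNAs themselves were not analysed here.

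Exons of 18 of the 43 overlap exons of a gene on the other strand. The kit marks strand, but whether the counting used it is not given in the sources used here, so these levels are uncertain where the partner is transcribed. Among the 25 without such an overlap 13 rose with adult platelets, 19 rose and 2 fell with P7 platelets, and 14 were higher and 1 lower with P7 than with adult platelets. Nop58, Rrs1 and Nolc1 are among these 25. Of all genes 14.3% were called higher with adult platelets, and 29.9% higher and 29.3% lower with P7 platelets. Between P7 and adult platelets 19.7% were higher and 19.8% lower. Gnl3 and Rrp9 share only 15 and 20 exon bases with Pbrm1 and Parp3. On the same strand, exons of Nop56, Nop58, Ncl and Gnl3 overlap exons of other annotated genes. The part of that overlap in their levels was not tested.

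The same pathway was also read through 116 further biogenesis genes listed by role. With adult platelets 44 rose and 1 fell (median 0.13; 22 rose without control 2 and 23 without control 3), with P7 platelets 77 rose and 8 fell (median 0.30), and between P7 and adult platelets 56 were higher and 4 lower (median 0.16). The shares called higher were 37.9, 66.4 and 48.3%, against 14.3, 29.9 and 19.7% of all genes. With library totals the counts were 24 and 3, 39 and 29, and 10 and 30. Of all genes 9.42 and 16.6%, 16 and 49.9%, and 10.4 and 43.5% were then called higher and lower. Under TMM scaling without control 2 or control 3, 7.99 and 8.58% of all genes were called higher with adult platelets.

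Large subunit genes made up the most calls: of 46, 21 rose with adult and 36 with P7 platelets, and 2 fell with P7 platelets. These were 45.7, 78.3 and 4.35%, against 14.3, 29.9 and 29.3% of all genes. Tma16, which acts late on the large subunit, rose most (2.01 ± 0.11, adjusted p = 1.62e-06), from 6.92 ± 0.209 to 28.0 ± 3.8 CPM (mean ± SD, n = 3), followed by Rrp15 (1.10 ± 0.085, adjusted p = 7.38e-06) and Zfp593 (0.91 ± 0.097, adjusted p = 4.44e-05). Nop53 fell by 0.43 ± 0.068 (adjusted p = 0.000503). Among 37 processome genes 25 rose and 3 fell with P7 platelets. Rcl1 led them (1.63 ± 0.14, adjusted p = 1.62e-05), ahead of Nol10 (0.79 ± 0.065, adjusted p = 1.05e-05) and Pwp2 (0.78 ± 0.073, adjusted p = 2.15e-05). Late small subunit genes rose in 8 of 9 cases with P7 platelets, and the kinase gene Riok3 rose by 1.06 ± 0.060 (adjusted p = 1.52e-06). Riok3 is also known from red cell maturation, and the erythroid markers were highest in the P7 libraries; their part in its rise was not tested.

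Of 13 further genes for transcribing ribosomal RNA, 4 rose and 3 fell with P7 platelets (30.8 and 23.1%), near the shares of all genes called higher and lower (29.9 and 29.3%). Rrn3, which brings RNA polymerase I to its promoter, rose by 0.21 ± 0.043 (adjusted p = 0.0076) and 0.49 ± 0.043 (adjusted p = 1.45e-05), and the polymerase subunit gene Znrd1 by 0.43 ± 0.056 (adjusted p = 0.000151). Polr1c, a subunit shared with RNA polymerase III, fell by 0.53 ± 0.072 (adjusted p = 0.000183), and Taf1d fell by 0.41 ± 0.058 (adjusted p = 0.000267). Of 11 partners and assembly factors of small nucleolar particles 4 rose with P7 platelets (36.4%, against 29.9% of all genes), among them Snu13 (0.67 ± 0.11, adjusted p = 0.000701) and Nufip1 (0.44 ± 0.044, adjusted p = 2.91e-05), while with adult platelets 0 of 11 were called by edgeR, the DESeq2 Wald test or limma-voom, with 3 higher at an unadjusted p below 0.05 in edgeR.

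Of 9 tested genes of the MYC network, most of which encode proteins that pair with MAX or its relative MLX, 1 rose and 4 fell with P7 platelets (11.1 and 44.4%, against 29.9 and 29.3% of all genes). Mxd4, whose protein competes with MYC for MAX and represses transcription, had 50.2, 50.6 and 49.9 CPM in the control libraries, 33.5, 28.7 and 38.5 CPM with adult platelets and 14.5, 12.4 and 11.7 CPM with P7 platelets. The groups formed falling steps without overlap. Mxd4 fell by 0.58 ± 0.11 with adult platelets (adjusted p = 0.00409) and by 1.97 ± 0.11 with P7 platelets (adjusted p = 1.63e-06). Mnt and Mxd3, repressors of the same family, fell by 0.62 ± 0.093 and 0.77 ± 0.19 with P7 platelets (adjusted p = 0.000355 and 0.00657). Mxd1, another of these repressors, was -0.014 ± 0.13 (adjusted p = 0.938) against control, and was higher with P7 than with adult platelets by 0.39 ± 0.13 (adjusted p = 0.0464). That call was lost without any 1 library except adult 3 or P7 1 (adjusted p up to 0.171). Mlx rose by 0.40 ± 0.057 (adjusted p = 0.000262).

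The 79 genes of cytosolic ribosomal proteins, the cargo that these factors assemble, had few calls. With adult platelets edgeR called 0 (median 0.052, 73 of 79 above 0). With P7 platelets 5 fell and 0 rose (median -0.041, 20 of 79 above 0). Between P7 and adult platelets 10 were lower and 0 higher (median -0.098, 3 of 79 above 0). Called lower in the last 2 comparisons were 6.33 and 12.7%, against 29.3 and 19.8% of all genes. Where edgeR called 0, the DESeq2 Wald test and limma-voom also called 0, and 0 had an unadjusted p below 0.05. Many have near-identical pseudogenes, so single levels are uncertain. Their summed share of counts, without scaling factors, was 3.00% in control, 2.96% with adult and 2.38% with P7 platelets.

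**Figure D4:**
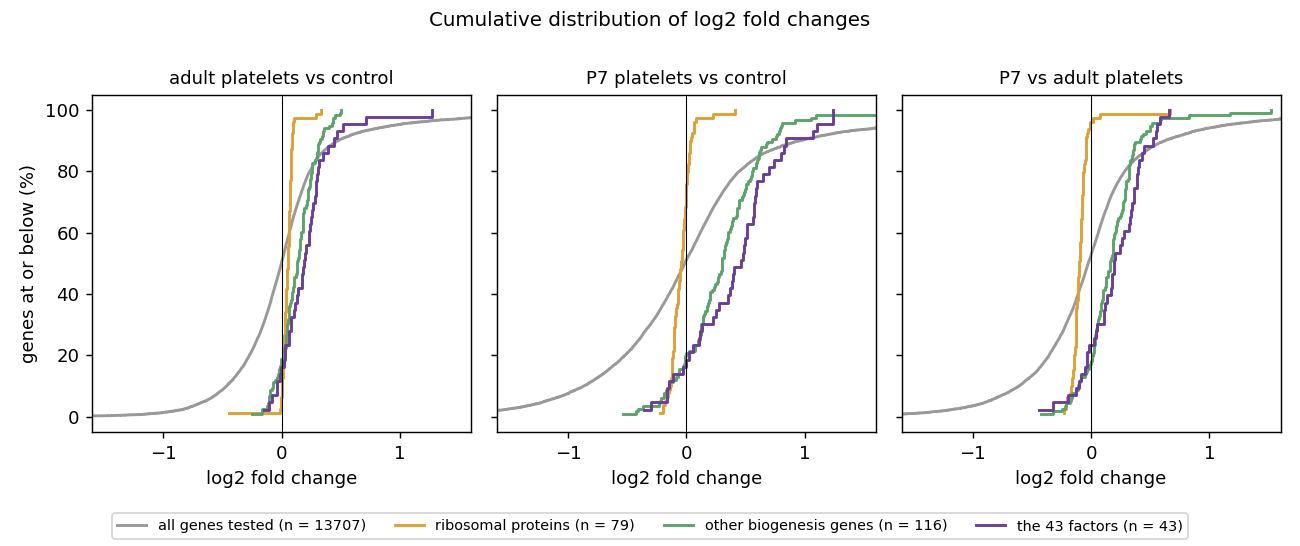
Cumulative distributions of log2 fold change in the 3 comparisons for the 43 factors, 116 other biogenesis genes, 79 cytosolic ribosomal protein genes and all 13707 genes tested. In each panel the curve of the 43 has the highest median (0.19, 0.46 and 0.20), ahead of the other biogenesis genes (0.13, 0.30 and 0.16), while the ribosomal protein genes have medians of 0.052, -0.041 and -0.098.

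The summed platelet and erythroid marker transcripts were higher in the libraries with platelets, as given above, and highest with P7 platelets. Of the 13 platelet markers 11 were called higher and 1 lower with P7 than with adult platelets, where 19.7 and 19.8% of all genes were. Transcripts encoded by the mitochondrial genome made up 1.17 to 1.62% of counts in control, 2.05 to 2.28% with adult and 2.33 to 2.42% with P7 platelets, so the groups did not overlap. The part of these transcripts in the levels of the 43 factors was not tested. The control libraries, with a platelet marker share of at most 0.00278%, had counts of all 43 factors. Such counts do not show which cells the differences between groups came from, which was not tested.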

How the data were processed

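The authors deposited raw whole-number read counts per gene symbol, 1 table for each of 9 libraries. Tools named in the submitters' processing notes, without roles, are fastp (0.20.1), STAR (2.7.6a), Subread (2.0.1), featureCounts and Salmon (1.3.0). The genome build is not given in the sources used here, and neither are annotation and strand setting. Groups came from the labels.

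Counts went into edgeR 4.0.16 (R 4.3.3) with filterByExpr by group (minimum count 10), TMM scaling, a quasi-likelihood model of the 3 group means over the 9 libraries (6 residual degrees of freedom) and Benjamini-Hochberg adjustment over 13707 genes, called below 0.05. The script was tested on simulated data. Standard errors are the log2 fold change over the root of F. RPKM use exon lengths of GENCODE M21, which matched 53292 of 55367 symbols. Promoters are RefSeq's (GRCm38.p6). Of the lists, Nopchap1 and Ahsp were not found by symbol and Mycn was below the filter.

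Alternatives were other scalings (DESeq2 1.42.0 size factors, upper quartile), filters, tests (DESeq2 Wald, limma-voom with limma 3.58.1) and a replicate block. Others were 2 groups only, a fit without platelet and erythroid markers, globins and mitochondrially encoded genes, an Igkc term, and each library left out. The members and lists were chosen with earlier results of these data known. All 43 members are named, and of each other list up to 3 called genes per comparison and direction by size, with a mean log2 CPM of at least 2. All 9 libraries enter every main comparison.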

Additional observations from a re-analysis of the deposited data

How the results depend on the processing

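Of 2709 values of single factors under 21 alternatives, 2454 kept their direction and their side of the threshold, 150 lost a call, 41 gained one and 64 changed sign. Of the 64, 5 were past the threshold with the new sign, each under library totals: with P7 platelets Dkc1, Ddx10 and Pes1 (adjusted p = 0.0174, 0.0132 and 0.00226) and for P7 against adult platelets Ddx10 and Pes1 (adjusted p = 0.0164 and 0.00824). For 63 values of the other named genes, of the biogenesis lists and the MYC network, 1225 of 1323 were kept and 97 lost. The sign changed in 1 (Taf1b with P7 platelets, -0.036 under library totals). Upper-quartile factors, another scaling, gave medians of the factors of 0.36 with P7 platelets and 0.13 for P7 against adult platelets, with 1 factor lower with adult platelets and 5 lower for P7 against adult platelets, and 2, 16 and 9 other biogenesis genes lower in the 3 comparisons; the medians of all genes were then -0.032, -0.12 and -0.096. DESeq2 size factors, the DESeq2 Wald test and the fit without a filter each left 2 factors lower with P7 platelets. Other biogenesis genes lower with adult platelets numbered 0 with no filter or with only the 2 groups compared and 2 with a term for libraries high in Igkc, under which 1 factor was lower with adult platelets.

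Library totals with no scaling factors, chosen after seeing the data, moved most. All genes called numbered 1291 higher with adult platelets, 2193 higher and 6846 lower with P7 platelets, and 1427 higher and 5963 lower for P7 against adult platelets. The factors' medians were 0.13, 0.19 and -0.016, with 13 and 2, 21 and 11, and 12 and 11 called higher and lower. Other biogenesis genes had 24 and 3, 39 and 29, and 10 and 30. Of all genes 9.42 and 16.6%, 16 and 49.9%, and 10.4 and 43.5% were called higher and lower. Leaving out the 4 libraries high in Igkc, also chosen later, gave medians of 0.43 with P7 platelets and 0.24 for P7 against adult platelets and 5 and 8 other biogenesis genes lower with adult platelets and for P7 against adult platelets; it leaves 1 adult-platelet library, assumed to vary like the others.

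The replicate numbers were tested as a block. Same-numbered libraries of different groups had correlations of 0.49 to 0.58 in their deviations for number 1, 0.21 to 0.35 for number 2 and -0.081 to 0.34 for number 3. Thus 7 of 9 pairs were above 0.1, and 4 of 9 libraries correlated best with their own number in both other groups, a hint from the data that is clearest for number 1, whose libraries are also high in Igkc. As 2 pairs were below 0.1 and the labels name no shared source, the numbers were not taken as pairs. With the replicate block the factors called numbered 21, 34 and 27 against 22, 35 and 27, with Fbl with adult platelets and Polr1a with P7 platelets lost (adjusted p = 0.0587 and 0.0533), and 2 other biogenesis genes were lower with adult platelets.

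Leaving out 1 library at a time gave 13 to 21 factors called higher with adult platelets, 0 to 1 factors called lower with adult platelets, 2 to 4 factors called lower with P7 platelets, 1114 to 2011 all genes higher with adult platelets, 917 to 1763 all genes lower with adult platelets, 22 to 43 other biogenesis genes higher with adult platelets and 0 to 2 other biogenesis genes lower with adult platelets. The 13 came without control 2 and without control 3. Medians of the factors ranged from 0.43 to 0.47 with P7 platelets and from 0.19 to 0.25 for P7 against adult platelets. Uncalled values that changed sign ranged, for adult platelets against control, from -0.012 to 0.035 for Ncl, from -0.049 to 0.022 for Nob1, from -0.041 to 0.024 for Rrp12, from -0.046 to 0.20 for Utp20 and from -0.075 to 0.00040 for Wdr12; for P7 platelets against control, from -0.049 to 0.073 for Dkc1, from -0.022 to 0.011 for Ncl and from -0.070 to 0.018 for Rrp1b; for P7 against adult platelets, from -0.11 to 0.013 for Dkc1, from -0.095 to 0.10 for Myc, from -0.036 to 0.011 for Ncl and from -0.022 to 0.12 for Nop10.

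Other values that changed sign were as follows. With upper-quartile factors, for adult platelets against control Ncl -0.013, Ddx21 -0.00073 and Pes1 -0.00056; for P7 platelets against control Dkc1 -0.080 and Pes1 -0.045; for P7 against adult platelets Nop10 -0.031, Ddx10 -0.023 and Pes1 -0.044. With library totals, for adult platelets against control Dkc1 -0.0040, Ncl -0.047, Ddx21 -0.034 and Pes1 -0.034; for P7 platelets against control Fbl -0.14, Dkc1 -0.25, Nop10 -0.0025, Ddx21 -0.053, Ddx10 -0.16, Rrp12 -0.17, Pes1 -0.22, Noc2l -0.030 and Taf1b -0.036; for P7 against adult platelets Gar1 -0.035, Nhp2 -0.10, Nop10 -0.17, Ddx21 -0.018, Nop14 -0.016, Noc4l -0.035, Ddx10 -0.17, Rrp12 -0.10, Bysl -0.076, Pes1 -0.19, Bop1 -0.014, Noc2l -0.046 and Rrp1b -0.094. Without the libraries high in Igkc, for P7 platelets against control Dkc1 -0.067 and Ncl 0.021; for P7 against adult platelets Myc 0.069, Fbl 0.080 and Ncl 0.014. With a term for those libraries, for P7 against adult platelets Myc 0.032. With DESeq2 size factors, for P7 platelets against control Ncl 0.011. With the DESeq2 Wald test, for P7 platelets against control Ncl 0.011. With a filter at a mean of 50 counts, for P7 platelets against control Ncl 0.0033. Where no value above shows it, the cause of such a change was not tested. The depth, at 77 or more raw counts a factor and library, limits the precision of Myc most.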
